A study of Oryctolagus cuniculus with 24 samples.

Results

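The 10 transcripts described here encode secreted ligands of the transforming growth factor β (TGF-β) superfamily: TGFB1, TGFB2, TGFB3, INHBA, INHBB, BMP2, BMP4, BMP6, GDF6 and GDF10. They were found by gene name among the 23428 protein-coding genes of the deposited count table, and all 10 are listed. RNA was sequenced from first-passage rabbit keratocytes, cells that live in the stroma of the cornea, after 6 days on glass coated with collagen. Cells of the TGF-β1 condition received 5 ng/mL TGF-β1 protein in serum-free medium from day 1. Cells of the FBS condition were kept in serum-free medium until day 3 and then in DMEM with 10% fetal bovine serum, and cells of the serum-free condition stayed in defined medium throughout. Each condition has 8 libraries from primary cells with no genetic change. The FBS condition thus also differs from the others in its base medium, and its exposure started later than that to TGF-β1. No label says whether the 8 libraries of a condition came from separate animals or cultures, so the p-values reflect only how far these libraries differ, and that spread could be technical.

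Ligands of this superfamily are made as precursors, cut by proprotein convertases, and act as dimers on pairs of serine/threonine kinase receptors. The TGF-β isoforms and the activins signal mainly through SMAD2 and SMAD3, and the bone morphogenetic proteins (BMPs) and many growth differentiation factors (GDFs) through SMAD1, SMAD5 and SMAD9. In the cornea TGF-β is best known for turning stromal keratocytes into contractile, scar-forming myofibroblasts after injury. Read counts report the cells' own transcripts, not the TGF-β1 protein added to the medium, and not the secreted or activated ligands.

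The ligands did not move as 1 family. With TGF-β1, 7 of the 10 rose and 1 fell against serum-free medium, and GDF10, GDF6, INHBA, TGFB1, TGFB3, BMP2 and INHBB were the 7. With FBS, 5 rose (TGFB1, INHBA, INHBB, BMP2 and GDF6) and 5 fell (TGFB2, TGFB3, BMP4, BMP6 and GDF10). Between the treatments, 7 were higher with TGF-β1 than with FBS and the 2 activin subunit genes were lower. TGFB3 was called higher with TGF-β1 and lower with FBS, both against the same serum-free libraries. GDF10 had the same pair of calls, but its call with FBS sets 0 reads against 31 reads over 8 serum-free libraries, it passed the filter on low counts through TGF-β1 libraries alone, and the call was lost with limma on log2(FPKM + 1) (adjusted p = 0.209).

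These calls rest on edgeR's quasi-likelihood test, with p-values adjusted over the 13308 genes tested and a call at an adjusted p under 0.05. Calls were common over all genes: 64.3% for TGF-β1 against serum-free medium (31.2% higher and 33.1% lower), 80.0% for FBS against serum-free medium (39.5% and 40.5%) and 73.3% for TGF-β1 against FBS (36.9% and 36.4%). Being called at all was therefore close to the background for these ligands. The median log2 fold change of the 10 ligands was 2.33 for TGF-β1 against serum-free medium, where that of all genes was -0.03. For FBS against serum-free medium it was 0.37 against -0.04 over all genes, and for TGF-β1 against FBS 0.99 against 0.01. All 10 ligands passed the filter on low counts, but INHBA, INHBB, BMP2, GDF6 and GDF10 reached its minimum of 0.560 CPM in too few serum-free libraries (5, 5, 0, 1 and 1 of 8) and passed through treated ones, so a higher level there was part of how they came to be tested. The counts and medians over the 10 ligands are thus given as a description, and nothing is read from their distance to all genes.

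**Figure D1:**
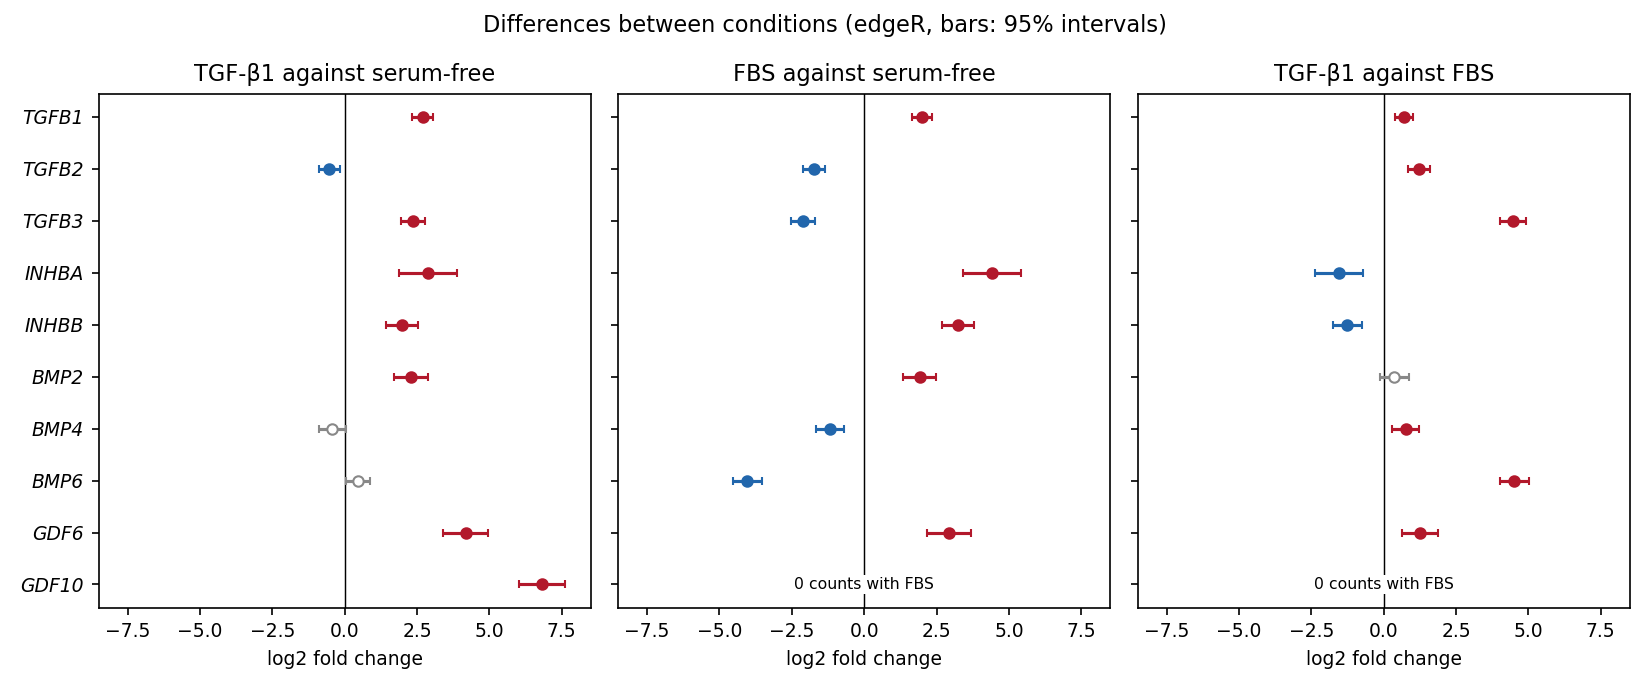
Log2 fold change of each ligand (x axis) in the 3 comparisons, from edgeR, with bars for 95% intervals. Red points were called higher, blue points lower, and open grey points were not called. GDF10 has no point in the comparisons with FBS, where it had 0 counts. TGFB3 lies at 2.36, -2.11 and 4.47 in the panels from left to right.

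Total counts per library ran from 15410285 to 20911192 with TGF-β1, from 15659561 to 22528261 with FBS and from 17151397 to 21540864 in serum-free medium. Summed markers of keratocytes (KERA, LUM, DCN, ALDH1A1, CD34 and OGN) reached 13333 to 23457 CPM (counts scaled to library size) with TGF-β1, 1923 to 4132 CPM with FBS and 60805 to 97905 CPM in serum-free medium. These markers did not all follow the sum between the treatments. LUM, DCN and OGN were higher with TGF-β1 than with FBS. KERA and ALDH1A1 were not called (edgeR adjusted p = 0.195 and 0.301). CD34 was lower with TGF-β1 (6.1 CPM, and 13.0 CPM with FBS, edgeR adjusted p = 4.68e-12). The myofibroblast markers ACTA2 and TAGLN summed to 395 to 1030 CPM with TGF-β1, 407 to 1078 CPM with FBS and 1.07 to 14.7 CPM in serum-free medium. ACTA2 alone was lower with TGF-β1 than with FBS (231 and 479 CPM, edgeR adjusted p = 0.0127). TAGLN was not called between the treatments (411 and 258 CPM, edgeR adjusted p = 0.0531). CNN1, also listed as a marker, was not found. Of the 5 corneal epithelial markers found, KRT12 was at 0 in every library, and the sum stayed under 1 CPM in all conditions, as did each of the 4 immune markers on average. Endothelial markers summed to 52.0 to 113 CPM, 13.8 to 19.0 CPM and 246 to 367 CPM in TGF-β1, FBS and serum-free libraries, most of it KDR. Markers of Schwann cells summed to 2.15 to 5.39, 1.38 to 3.11 and 10.5 to 16.5 CPM in the same order. The part of these cells in the ligand levels was not tested. In bulk RNA, fewer cells of a type and less RNA per cell cannot be told apart. FBS replicates 5 and 6 stood apart from FBS replicates 7 and 8: the chi-square per gene between them was 46.3 to 73.8, whereas it was 3.10 between replicates 7 and 8. Results without both are given where a call changed.

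**Figure D2:**
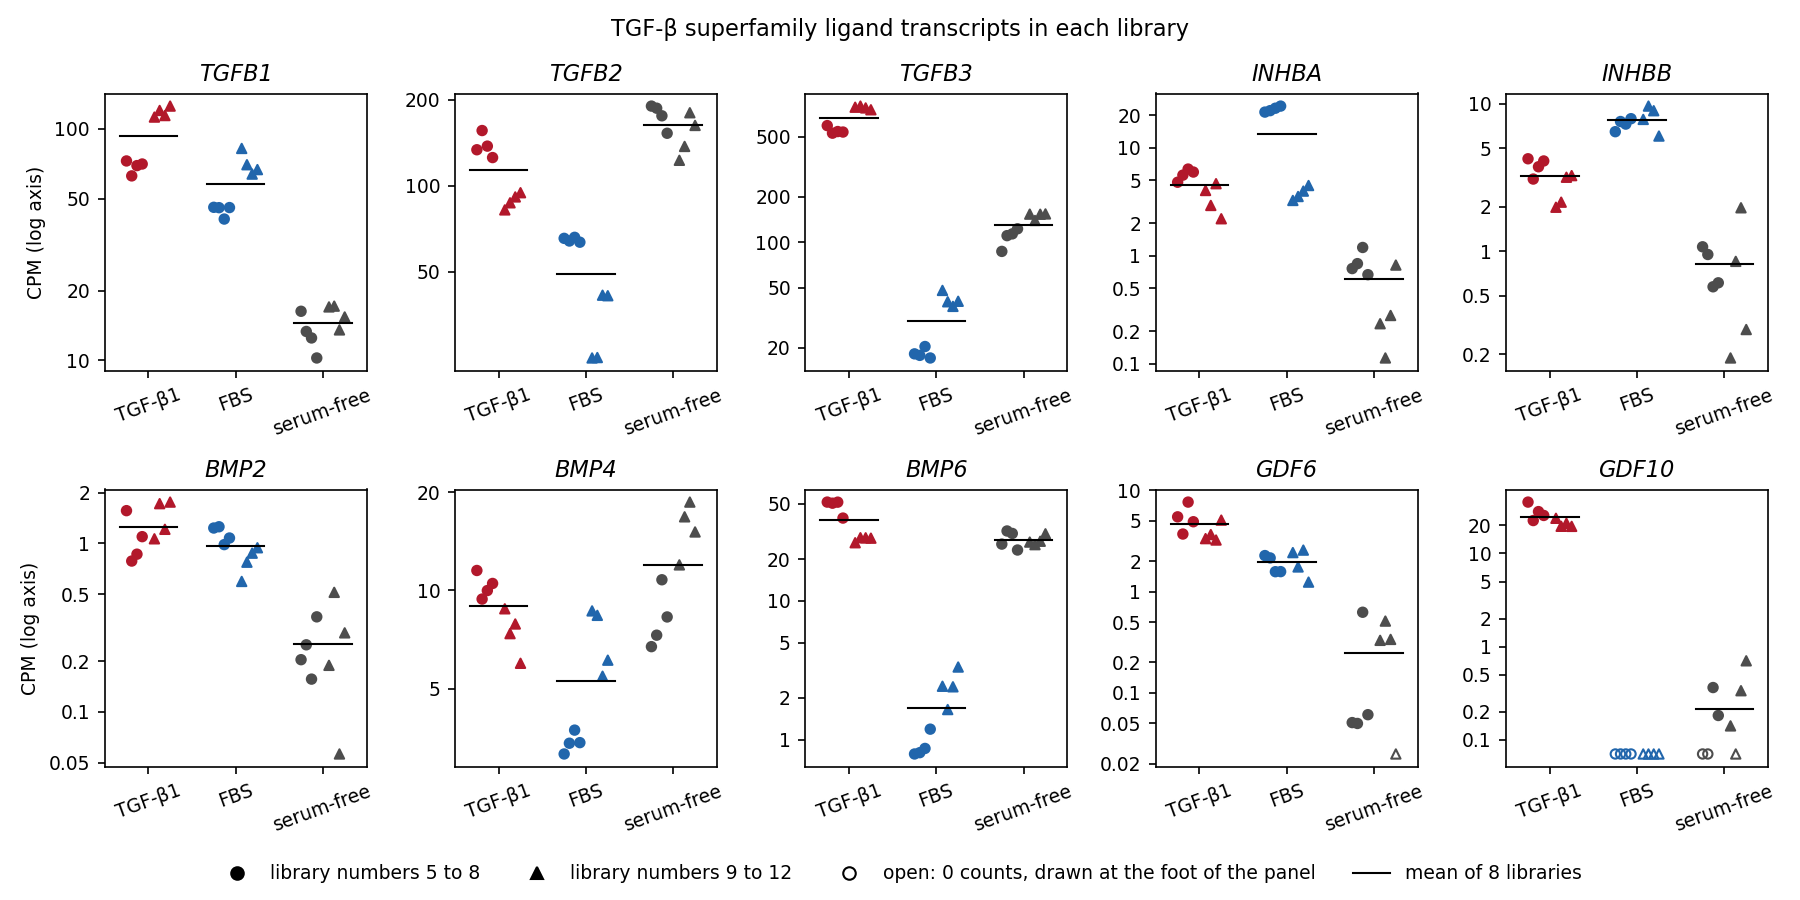
CPM of each ligand in each library (y axis, log scale), by condition (x axis). Circles are library numbers 5 to 8, triangles are 9 to 12, bars are means of 8 libraries, and open symbols at the foot of a panel stand for 0 counts. TGFB3 lies between 529 and 799 CPM with TGF-β1, above every library of the other conditions, and GDF10 has 0 counts in all 8 FBS libraries.

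TGFB3, the isoform known for palate fusion and often linked to scar-poor repair, had the highest level per length (FPKM) of the 10 in TGF-β1-treated cells. Its lowest, median and highest libraries were 529, 674 and 799 CPM with TGF-β1, 17.1, 29.0 and 48.0 CPM with FBS, and 87.0, 131 and 154 CPM in serum-free medium. The 3 conditions did not overlap in any library. Against serum-free medium TGFB3 was 5.14-fold higher with TGF-β1 (log2 fold change 2.36, SE 0.21, edgeR adjusted p = 1.84e-10) and lower by a factor of 4.31 with FBS (-2.11, SE 0.21, edgeR adjusted p = 6.06e-10). Between the treatments the difference was 22.2-fold (4.47, SE 0.23, edgeR adjusted p = 1.60e-15). The gene is listed on the plus strand of chromosome 20 from 29182872 to 29208377, in a build that the sources used here do not name.

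TGFB1, which encodes the same ligand that was added as protein, rose in both treatments. It reached 62.7, 92.6 and 126 CPM (lowest, median and highest library) with TGF-β1, 40.8, 54.8 and 82.4 CPM with FBS, and 10.2, 14.5 and 17.2 CPM in serum-free medium. Every treated library lay above every serum-free one, while the TGF-β1 and FBS libraries overlapped. The rise was 6.47-fold with TGF-β1 (log2 fold change 2.69, SE 0.18, edgeR adjusted p = 6.82e-13) and 3.99-fold with FBS (1.99, SE 0.17, edgeR adjusted p = 6.13e-11). TGF-β1-treated cells had a 1.62-fold higher TGFB1 level than FBS-treated cells (0.70, SE 0.17, edgeR adjusted p = 0.000526). That last call was lost with total library size in place of TMM scaling (0.31, edgeR adjusted p = 0.106), a scaling that shifts the median of all genes to -0.39 in this comparison, and with counts summed per condition and set of library numbers (0.65, edgeR adjusted p = 0.142).

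TGFB2, the isoform best known from the eye, where it is abundant in aqueous humour, fell in both treatments. Its lowest, median and highest values were 82.4, 110 and 156 CPM with TGF-β1, 25.0, 52.5 and 66.1 CPM with FBS, and 123, 169 and 190 CPM in serum-free medium. FBS libraries lay below all others, and TGF-β1 libraries overlapped with serum-free ones. The fall was 3.34-fold with FBS (log2 fold change -1.74, SE 0.20, edgeR adjusted p = 7.70e-09) and 1.44-fold with TGF-β1 (-0.53, SE 0.19, edgeR adjusted p = 0.0182). The smaller of these calls was lost when neighbouring libraries were summed to 4 units per condition (-0.493, edgeR adjusted p = 0.147) or to 2 units (-0.455, edgeR adjusted p = 0.382), with little change in its size. TGFB2 was 2.32-fold higher with TGF-β1 than with FBS (1.21, SE 0.19, edgeR adjusted p = 3.34e-06).

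Per transcript length, the makeup of the TGF-β isoforms differed between the conditions. With TGF-β1 the 3 isoforms summed to 330 ± 60.2 FPKM (mean ± SD, n = 8), of which TGFB3 was 56.8% ± 1.29, TGFB1 32.7% ± 3.84 and TGFB2 10.6% ± 4.31. With FBS the sum was 89.8 ± 15.7 FPKM, and TGFB1 made up 74.0% ± 6.20, TGFB2 16.9% ± 8.42 and TGFB3 9.05% ± 2.42. In serum-free medium the sum was 100.3 ± 5.73 FPKM, with 46.9% ± 6.89 TGFB2, 36.3% ± 6.14 TGFB3 and 16.9% ± 2.79 TGFB1. The leading isoform was thus TGFB3 with TGF-β1, TGFB1 with FBS and TGFB2 in serum-free medium, where TGFB2 and TGFB3 overlapped between libraries. The sums of the FBS and serum-free libraries overlapped (72.4 to 115 and 90.8 to 109 FPKM), whereas those with TGF-β1 (264 to 394 FPKM) lay above both.

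These shares and sums lean on the listed gene lengths. TGFB1 is listed at 853 bases against 3481 for TGFB2 and 3545 for TGFB3. As shares of raw counts, TGFB1 made up 10.5% with TGF-β1, 41.7% with FBS and 4.72% in serum-free medium. TGFB3 then made up 75.8%, 21.5% and 42.0%, and TGFB2 13.7%, 36.8% and 53.3%, in the same order of conditions. On average the leading isoform of each condition is the same on both scales. Within sets, TGFB2 led by counts in library numbers 5 to 8 of FBS (50.7%, with 34.9% for TGFB1), and TGFB3 and TGFB2 were about level in numbers 9 to 12 of serum-free medium (47.6% and 47.4%). The scale by counts was added after the values were seen.

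**Figure D3:**
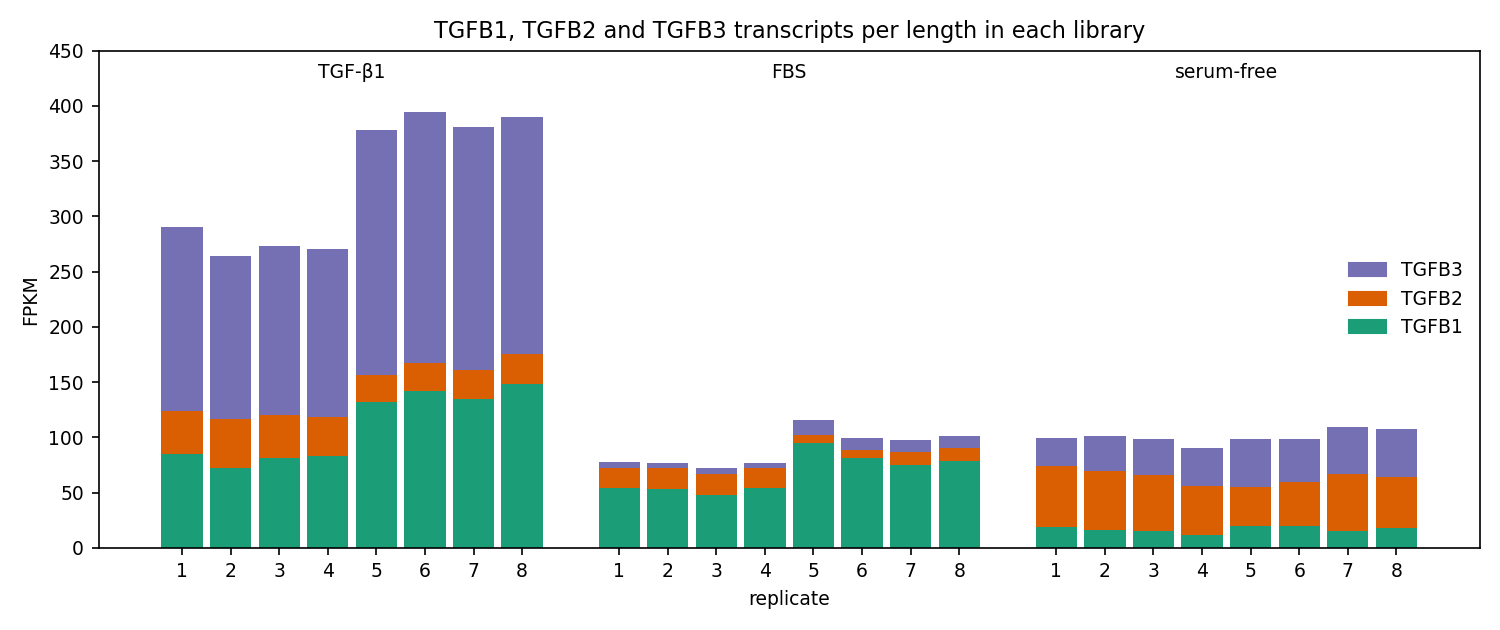
FPKM of TGFB1, TGFB2 and TGFB3 (y axis, stacked) in each library (x axis, replicates 1 to 8 of each condition). The stacks with TGF-β1 stand between 264 and 394 FPKM and are mostly TGFB3 and TGFB1, those with FBS are mostly TGFB1, and those in serum-free medium mostly TGFB2 and TGFB3.

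The activin subunit genes INHBA and INHBB, whose products pair as activins or, with the α subunit, as inhibins, were low in serum-free medium and rose in both treatments. INHBA was at 2.21, 4.74 and 6.37 CPM (lowest, median and highest library) with TGF-β1, 3.26, 13.0 and 24.4 CPM with FBS, and 0.114, 0.718 and 1.20 CPM in serum-free medium. No treated library overlapped with a serum-free one, but TGF-β1 and FBS libraries did overlap. The log2 fold change was 2.88 with TGF-β1 (SE 0.51, edgeR adjusted p = 2.04e-05) and 4.42 with FBS (SE 0.51, edgeR adjusted p = 1.19e-08). INHBA was 2.91-fold lower with TGF-β1 than with FBS (-1.54, SE 0.42, edgeR adjusted p = 0.00204), a difference that rested on library numbers 5 to 8. Among library numbers 9 to 12 the log2 fold change was -0.14 (edgeR adjusted p = 0.699), whereas with 2 summed units per condition it stayed at -1.59 with an edgeR adjusted p of 0.14.

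INHBB had 1.98, 3.21 and 4.23 CPM with TGF-β1, 6.03, 7.69 and 9.62 CPM with FBS, and 0.189, 0.731 and 1.97 CPM in serum-free medium (lowest, median and highest library). The 3 conditions were separate in every library, with FBS highest. Log2 fold changes were 1.98 with TGF-β1 (SE 0.29, edgeR adjusted p = 1.27e-06) and 3.24 with FBS (SE 0.29, edgeR adjusted p = 7.58e-11) against serum-free medium, and -1.26 for TGF-β1 against FBS (SE 0.26, edgeR adjusted p = 8.73e-05). Per length, INHBA made up 51.5% ± 8.33 of the INHBA and INHBB sum with TGF-β1, 48.6% ± 23.7 with FBS and 39.7% ± 21.5 in serum-free medium (mean ± SD, n = 8). The FBS share split by library number, at 69.0% to 71.6% in numbers 5 to 8 and 21.9% to 36.1% in numbers 9 to 12. The serum-free share ran from 9.18% to 68.0% and rests on few reads, 2 to 23 of INHBA and 4 to 35 of INHBB per library.

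The BMP genes differed among themselves. BMP6, a ligand best known for its part in iron control through hepcidin, showed the largest fall with FBS of the 9 ligands still detected there. Its lowest, median and highest libraries were 26.2, 34.0 and 51.5 CPM with TGF-β1, 0.788, 1.42 and 3.33 CPM with FBS, and 23.2, 26.7 and 31.9 CPM in serum-free medium. All FBS libraries lay far below the others, while TGF-β1 and serum-free libraries overlapped. BMP6 was 16.4-fold lower with FBS than in serum-free medium (log2 fold change -4.04, SE 0.25, edgeR adjusted p = 7.12e-14) and 22.7-fold higher with TGF-β1 than with FBS (4.50, SE 0.26, edgeR adjusted p = 1.57e-14).

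TGF-β1 against serum-free medium did not pass for BMP6 (0.47, SE 0.21, edgeR adjusted p = 0.0572). It did pass in 15 of 38 alternative settings. Leaving out any of TGF-β1 replicates 5 to 8 or FBS replicates 1, 2, 3, 5 or 8 gave edgeR adjusted p between 0.0336 and 0.0486, and leaving out FBS replicates 5 and 6 together gave 0.0462. In library numbers 5 to 8 BMP6 was higher with TGF-β1 (0.80, edgeR adjusted p = 1.01e-05), and in numbers 9 to 12 it was not called (0.03, edgeR adjusted p = 0.836).

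BMP4, a ligand that patterns the early eye, had 5.98, 9.10 and 11.5 CPM with TGF-β1, 3.15, 4.59 and 8.66 CPM with FBS, and 6.73, 11.4 and 18.7 CPM in serum-free medium (lowest, median and highest library). Every pair of conditions overlapped in some libraries. BMP4 fell with FBS (log2 fold change -1.18, SE 0.24, edgeR adjusted p = 7.07e-05) and did not pass with TGF-β1 (-0.42, SE 0.24, edgeR adjusted p = 0.121), with a sign that differed between library numbers: 0.33 in numbers 5 to 8 (edgeR adjusted p = 0.0728) and -1.05 in numbers 9 to 12 (edgeR adjusted p = 0.00015). It passed with total library size (-0.58, edgeR adjusted p = 0.0377). Its value was 0.76 for TGF-β1 against FBS (SE 0.24, edgeR adjusted p = 0.00623), a call that was lost with total library size (0.36, edgeR adjusted p = 0.177), in library numbers 9 to 12 alone (0.07, edgeR adjusted p = 0.771) and when libraries were summed (0.73, edgeR adjusted p = 0.066 with 4 units, and 0.71, edgeR adjusted p = 0.231 with 2). The fall with FBS was lost only with 2 summed units per condition (-1.06, edgeR adjusted p = 0.072).

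BMP2, an inducer of bone and cartilage, had the lowest level per length with TGF-β1. It had 0.784, 1.15 and 1.75 CPM with TGF-β1, 0.594, 0.961 and 1.25 CPM with FBS, and 0.0562, 0.227 and 0.511 CPM in serum-free medium, where single libraries held 1 to 9 reads of it. Treated libraries were all above serum-free ones and overlapped with each other. The rise was 4.89-fold with TGF-β1 (log2 fold change 2.29, SE 0.30, edgeR adjusted p = 2.11e-07) and 3.79-fold with FBS (1.92, SE 0.30, edgeR adjusted p = 1.53e-06). TGF-β1 against FBS did not pass (0.37, SE 0.26, 95% interval -0.13 to 0.87, edgeR adjusted p = 0.197), and this value turned negative with total library size (-0.03) and in library numbers 5 to 8 (-0.08).

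The summed FPKM of BMP2, BMP4 and BMP6 was 24.7 ± 6.07 with TGF-β1, 5.58 ± 1.97 with FBS and 22.0 ± 3.66 in serum-free medium (mean ± SD, n = 8). BMP6 made up 67.0% ± 4.56 of that sum with TGF-β1, 12.8% ± 4.46 with FBS and 56.4% ± 9.58 in serum-free medium. BMP4 made up 29.8% ± 4.04, 75.4% ± 5.83 and 42.9% ± 9.63 in the same order. The leading BMP transcript was BMP4 with FBS and BMP6 with TGF-β1.

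GDF10, also known as BMP3B, had the largest rise of the 10 ligands with TGF-β1. Its lowest, median and highest libraries were 19.5, 23.2 and 35.5 CPM with TGF-β1 and 0, 0.162 and 0.706 CPM in serum-free medium, and all 8 FBS libraries were at 0. Read counts were 273 to 546 per library with TGF-β1, 0 with FBS and 0 to 12 in serum-free medium, where 3 of 8 libraries had none. GDF10 was 113-fold higher with TGF-β1 than in serum-free medium (log2 fold change 6.82, SE 0.41, edgeR adjusted p = 1.72e-11). With 3 counts taken as the floor for a whole condition, it was at least 1431-fold higher with TGF-β1 than with FBS (edgeR adjusted p = 9.64e-13). It was at least 12.2-fold lower with FBS than in serum-free medium (edgeR adjusted p = 0.000397), a call that stands on 31 reads over 8 serum-free libraries and was lost with limma on log2(FPKM + 1), at an adjusted p of 0.209. A count of 0 says only that GDF10 was not detected with FBS at this depth.

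GDF6, a factor of joint and eye development, rose in both treatments and more with TGF-β1. It had 3.23, 4.29 and 7.64 CPM with TGF-β1, 1.24, 1.95 and 2.57 CPM with FBS, and 0, 0.196 and 0.625 CPM in serum-free medium, where 1 of 8 libraries had no read. The 3 conditions did not overlap. GDF6 was 18.2-fold higher with TGF-β1 than in serum-free medium (log2 fold change 4.19, SE 0.39, edgeR adjusted p = 7.05e-10) and 7.64-fold higher with FBS (2.93, SE 0.40, edgeR adjusted p = 1.82e-07). TGF-β1 against FBS gave 1.25 (SE 0.32, edgeR adjusted p = 0.000995).

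Libraries of the 2 conditions did not overlap for 7 of the 10 ligands for TGF-β1 against serum-free medium, all of them higher (33.9% of all genes were separate and 17.3% higher). Of these 7, INHBA, INHBB, BMP2, GDF6 and GDF10 had passed the filter through conditions in which they are high, so their separation was in part fixed by the filter and is not set against that share. For FBS against serum-free medium 8 were separate, 5 higher and 3 lower (52.9% of all genes, 27.2% and 25.7%), and 4 of the 5 higher ones (INHBA, INHBB, BMP2 and GDF6) carry the same limit. For TGF-β1 against FBS 6 were separate, 5 higher and 1 lower (46.2% of all genes, 22.4% and 23.8%), and GDF10, at 0 with FBS, passed the filter through TGF-β1 libraries alone.

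Ordered by FPKM, the level per length, the ligands ran TGFB3, TGFB1, TGFB2, BMP6, GDF10, BMP4, INHBA, GDF6, INHBB and BMP2 with TGF-β1. TGFB3 averaged 188 ± 36.1 FPKM there and BMP2 0.731 ± 0.223 FPKM (SD, n = 8). TGFB1 stood apart from TGFB2, TGFB2 from BMP6 and BMP4 from INHBA, and the other neighbours overlapped. With FBS the order was TGFB1 (67.3 ± 17.2 FPKM), TGFB2, TGFB3, BMP4, INHBA, INHBB, BMP6, BMP2, GDF6 and GDF10. Only TGFB1 and TGFB2, INHBB and BMP6, and GDF6 and GDF10 were separate as neighbours. In serum-free medium the order was TGFB2 (47.0 ± 7.16 FPKM), TGFB3, TGFB1, BMP6, BMP4, INHBB, INHBA, BMP2, GDF10 and GDF6. TGFB3 stood apart from TGFB1, and BMP4, at 9.68 ± 3.57 FPKM, from INHBB, at 0.304 ± 0.206 FPKM. The serum-free cells thus had 5 ligands above that gap and 5 below it. The order again depends on the listed lengths, of which that of BMP2 (1720 bases) equals its whole span in the table.

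Library numbers 5 to 8 and 9 to 12 differed for many of these ligands within a condition. INHBA with FBS had 21.5 to 24.4 CPM in numbers 5 to 8 and 3.26 to 4.49 CPM in numbers 9 to 12. TGFB3 was lower in numbers 5 to 8 than in 9 to 12 in all 3 conditions without overlap, at 529 to 593 and 755 to 799 CPM with TGF-β1, 17.1 to 20.4 and 37.6 to 48.0 CPM with FBS, and 87.0 to 123 and 140 to 154 CPM in serum-free medium. TGFB2 went the other way with TGF-β1 (126 to 156 and 82.4 to 94.6 CPM) and with FBS (63.5 to 66.1 and 25.0 to 41.4 CPM), and overlapped in serum-free medium. What the library numbers stand for is not given in the labels. Over all genes the listed gene length moved with this split (Spearman correlation with the log2 difference of numbers 9 to 12 over 5 to 8 of -0.16 with TGF-β1, -0.44 with FBS and -0.28 in serum-free medium, 13308 genes). The part of length in the ligands' split was not tested.

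Fitted within each set of library numbers, 8 of the 10 ligands had the same sign in both sets in every comparison. The exceptions were BMP4 for TGF-β1 against serum-free medium (0.33 in numbers 5 to 8 and -1.05 in numbers 9 to 12, where it passed) and BMP2 for TGF-β1 against FBS (-0.08 and 0.84, neither called). The set-by-condition term of edgeR, which tests whether an effect differs between the sets, passed for 3 ligands for TGF-β1 against serum-free medium (10.3% of all genes), 3 for FBS against serum-free medium (22.4%) and 4 for TGF-β1 against FBS (23.9%). BMP6 passed in all 3 comparisons and BMP4 and TGFB3 in 2 each.

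**Figure D4:**
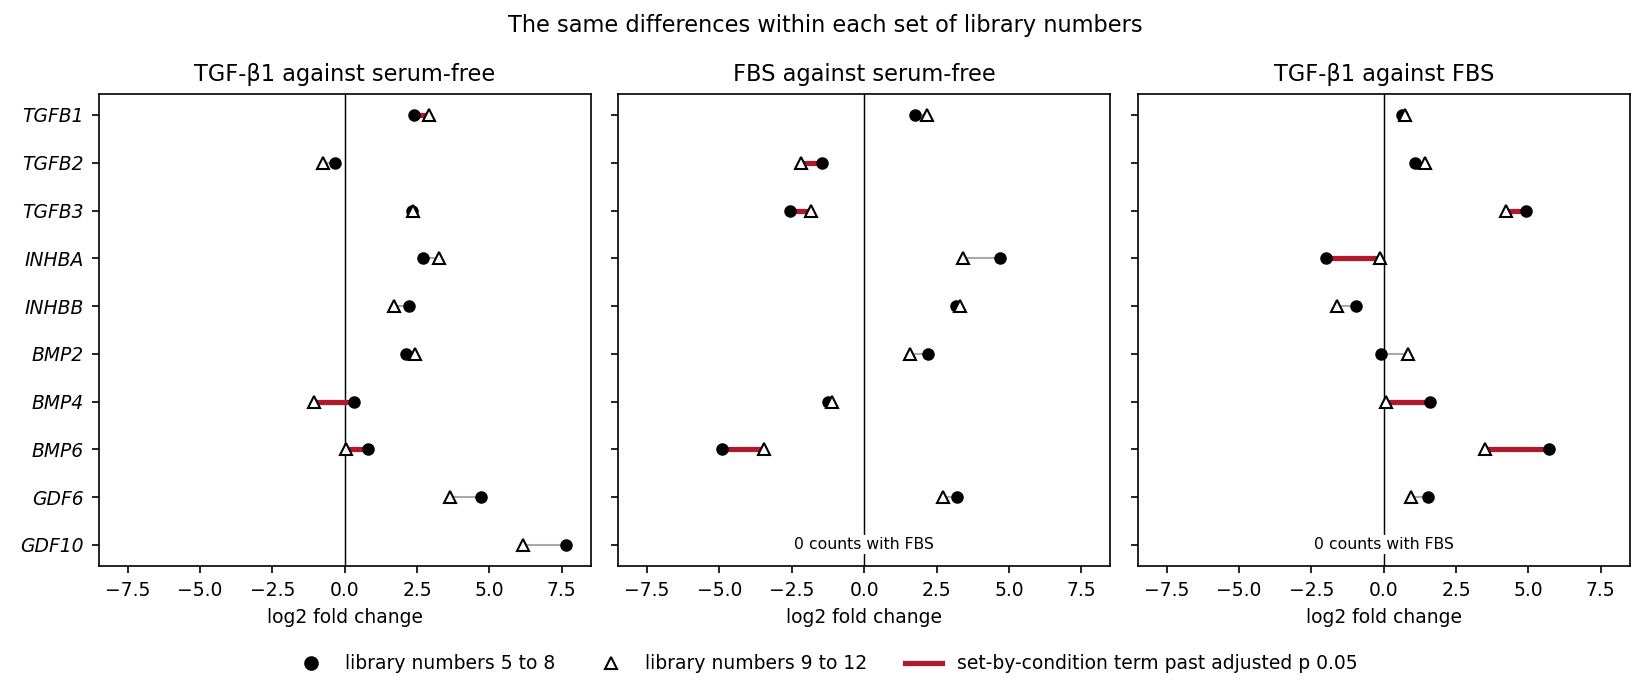
Log2 fold change of each ligand (x axis) fitted in library numbers 5 to 8 (circles) and in 9 to 12 (open triangles). Red lines mark ligands whose set-by-condition term passed an adjusted p of 0.05 in edgeR. The widest red lines are those of BMP6 (5.70 and 3.49) and INHBA (-2.01 and -0.14) for TGF-β1 against FBS.

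Of 23 further ligand genes listed, 17 were found in the table and 8 could be tested. With TGF-β1, 2 of the 8 rose and 6 fell against serum-free medium (median log2 fold change -2.03), and with FBS 1 rose and 6 fell (-2.23). BMP5, GDF5 and GDF9 averaged above the filter's minimum of 0.560 CPM only in serum-free medium. GDF9 was at 0.428, 0.147 and 1.46 CPM with TGF-β1, FBS and serum-free medium. BMP5 was at 0.0486, 0.491 and 0.562 CPM in the same order, and was not called with FBS. The falls of GDF5 and GDF9, and that of BMP5 with TGF-β1, were thus in part fixed by the filter. GDF5, a joint-forming factor, fell to 0.217 ± 0.220 CPM with TGF-β1 and 0.0423 ± 0.105 CPM with FBS, against 4.50 ± 2.37 CPM in serum-free medium (mean ± SD, n = 8). GDF7, another member of the GDF5 group, was 11.5 ± 1.49 CPM with TGF-β1 and 0.612 ± 0.371 CPM with FBS (log2 fold change 4.23, SE 0.27, edgeR adjusted p = 1.08e-13). GDF7 and GDF11, the 2 that rose with TGF-β1, are named together after their values were seen.

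Receptors and coreceptors were called in both directions in each comparison. Of 14 tested, 7 rose and 6 fell with TGF-β1 (median 0.03), 4 rose and 10 fell with FBS (-0.92), and 9 were higher and 3 lower with TGF-β1 than with FBS (0.87). ENG, which encodes the coreceptor endoglin, was 1165 ± 57.2 CPM with TGF-β1, 270 ± 19.2 CPM with FBS and 156 ± 23.03 CPM in serum-free medium. ACVR2A, a receptor for activins, was 10.7 ± 0.785 CPM with FBS and 66.0 ± 11.8 CPM in serum-free medium (log2 fold change -2.63, SE 0.12, edgeR adjusted p = 4.56e-17).

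Genes listed under ligand latency and release include ones that hold or release TGF-β and ones that cut ligand precursors. With TGF-β1, 9 of 17 rose and 5 fell (median 0.40). With FBS 4 rose and 10 fell (-1.20), and 15 were higher and 2 lower with TGF-β1 than with FBS (1.48). PCSK5, a convertase of ligand precursors, was 43.0 ± 3.43 CPM with TGF-β1 and 3.67 ± 0.812 CPM with FBS. LTBP2, a matrix protein of the latent TGF-β binding family that also stands in the list of TGF-β target genes, was 1996 ± 235 CPM with TGF-β1, 1.25 ± 0.456 CPM with FBS and 3.48 ± 1.11 CPM in serum-free medium. LTBP3, a latent TGF-β binding protein, did not pass with TGF-β1 (231 ± 16.7 CPM, and 241 ± 44.9 CPM in serum-free medium, edgeR adjusted p = 0.73).

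Extracellular antagonists rose in 5 of 11 cases and fell in 5 with TGF-β1 (median 0.05), and rose in 4 and fell in 6 with FBS (-0.54). NOG, which encodes the BMP antagonist noggin, was 13.9 ± 2.90 CPM with TGF-β1, 29.5 ± 2.38 CPM with FBS and 1.04 ± 0.931 CPM in serum-free medium. CHRD, which encodes chordin, was 192 ± 19.5 CPM with TGF-β1, 10.7 ± 3.47 CPM with FBS and 448 ± 70.1 CPM in serum-free medium. FST, whose product follistatin binds activins, was 10.1 ± 4.41 CPM with TGF-β1 and 1.39 ± 0.344 CPM with FBS (log2 fold change 2.87, SE 0.29, edgeR adjusted p = 1.37e-09).

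SMADs and feedback genes rose in 11 of 13 cases with TGF-β1 and in 9 of 13 with FBS, with 1 lower in each (medians 1.10 and 0.52). Of 10 TGF-β and activin target genes, 9 rose with TGF-β1 and none fell (median 4.41), and 8 rose and 1 fell with FBS (2.04). The lists share genes: SMAD7, SKIL and PMEPA1 stand in both of these, and SMAD6 and SMAD9 are also BMP target genes. PMEPA1, a feedback inhibitor of TGF-β signalling, was 134 ± 17.96 CPM with TGF-β1, 19.8 ± 1.68 CPM with FBS and 10.1 ± 1.31 CPM in serum-free medium. Of 10 BMP target genes listed, 7 were tested. All 7 rose in both treatments (medians 2.29 with TGF-β1 and 5.80 with FBS), and 6 of them were lower with TGF-β1 than with FBS (-3.01). ID2 and SMAD9 averaged 0.318 and 0.344 CPM in serum-free medium, under the filter's minimum of 0.560 CPM. They could pass only with treated libraries, so their rise was in part fixed by the filter. CDKN2B, a TGF-β target gene at 0.480 CPM in serum-free medium, carries the same limit with TGF-β1. ID2, an inhibitor of helix-loop-helix factors, was 6.35 ± 2.05 CPM with TGF-β1, 80.8 ± 30.7 CPM with FBS and 0.318 ± 0.301 CPM in serum-free medium. The ligands BMP2, BMP4 and BMP6 had their lowest summed FPKM with FBS, as given above, and the link between these values was not tested.

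**Figure D5:**
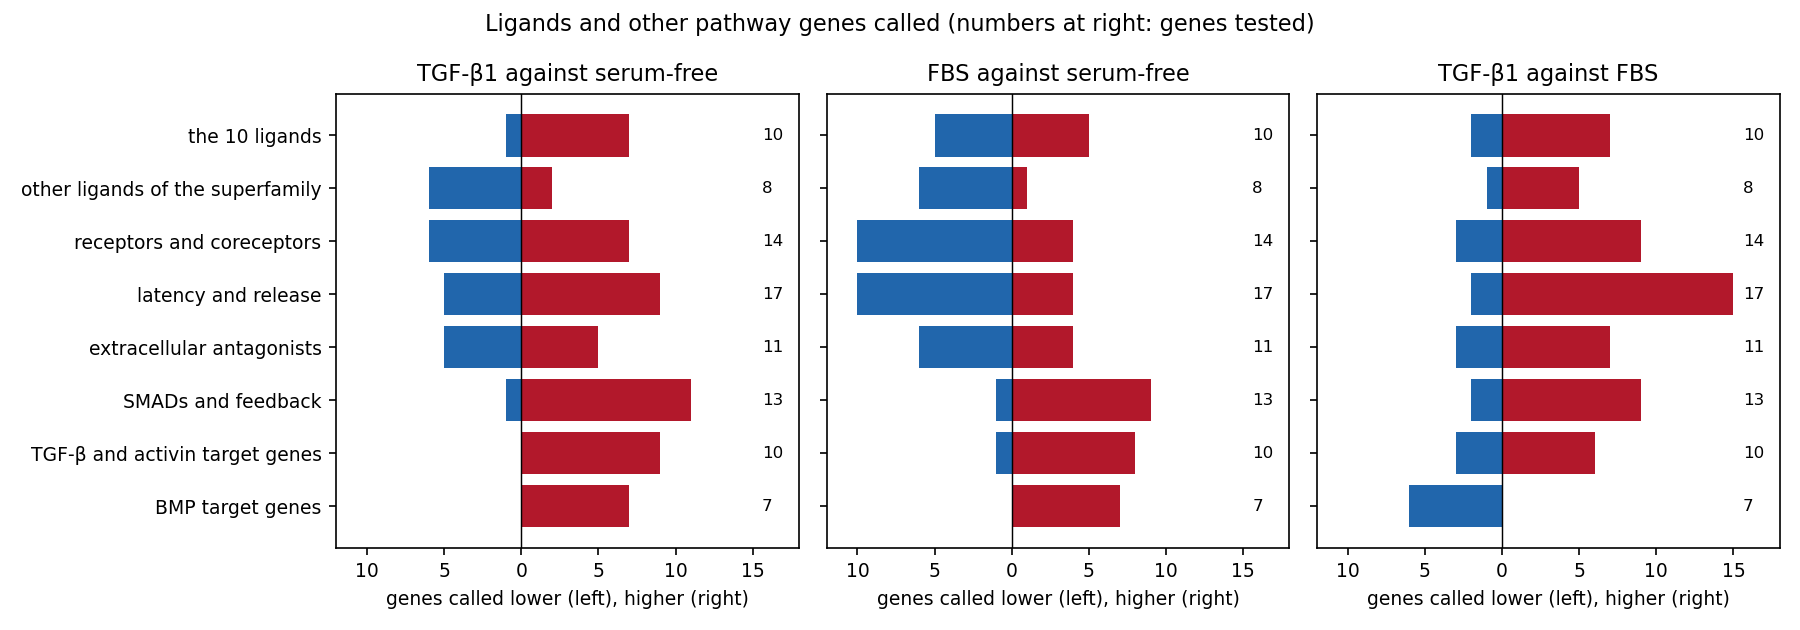
Number of genes called lower (bars to the left) and higher (bars to the right) by edgeR in each list of pathway genes (rows), with the number of genes tested at the right edge of each panel. The 10 ligands show 7 calls upward and 1 downward with TGF-β1 over serum-free medium, and the 8 other ligands tested show 2 higher and 6 lower. The difference between these lists was not tested, and in both some genes passed the filter on low counts through conditions in which they are high.

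Likeness of profile was measured as the root mean square difference of log2 CPM over the 24 libraries after each gene was centred on its own mean, among 11267 other named genes. The nearest gene to TGFB3 was GDF7, at 0.38 (the median of all genes was 1.99), and the next was LPIN1 at 0.38. TGFB2 lay closest to FAM78B (0.20, median 1.04), TGFB1 to TPST2 (0.31, median 1.30) and BMP4 to EMILIN1 (0.28, median 0.90). BMP6 lay closest to TMEM178A (0.44, median 2.16) and GDF6 to NR4A1 (0.51, median 1.88). The nearest genes of GDF10 (RASGEF1C, 0.85, median 3.55) and INHBA (STK17B, 0.76, median 1.96) were further away.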

How the data were processed

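Per the labels' protocols, total RNA was extracted with a kit and libraries were made by a sequencing company. No source used here names the aligner, the counter, the build or the annotation. The authors deposited 1 raw read count per gene and library, and an FPKM table. Each deposited FPKM value equals the count divided by the listed gene length and 1 scaled library size per library, tested on all values. The count table was tested with edgeR 4.0.16 under R 4.3.3 (filterByExpr by condition, TMM, quasi-likelihood F-test, all 24 libraries, condition as the only term, Benjamini-Hochberg over 13308 genes). CPM is the count scaled to the TMM library size. Depth was 15410285 to 22528261 counts per library, so ligands under 1 CPM rest on few reads. Alternatives used DESeq2 1.42.0, and limma 3.58.1 on log2(FPKM + 0.1) and log2(FPKM + 1). The steps were tested on simulated counts whose libraries were drawn independently of each other. Such counts cannot show how the p-values behave where libraries group by number, as they do here.

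The ligands and gene lists were chosen with earlier results of these data known, and no p was adjusted over a list alone. Genes outside the 10 ligands follow a rule that takes from each list the called genes with the largest change and the most abundant gene not called, and some are left out for room. Of the list genes, 5 were found by RefSeq number (assembly mOryCun1.1) and 9 were not matched and are not analysed here. The table lists no gene that overlaps a ligand gene.

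Replicate numbers are shared between conditions. Deviations of same-numbered libraries from their condition means had correlations between 0.103 and 0.429 over the 3 comparisons, so a replicate block was tried. Within conditions the closest libraries had a chi-square per gene of 2.83, so none was taken as a repeat of another.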

Additional observations from a re-analysis of the deposited data

Results flagged for a closer look

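No single library stood apart in any of the 30 groups of 8 values (10 ligands in 3 conditions) by Dixon's test. In 10 of 28 cases the effect differed between library numbers 9 to 12 and 5 to 8 by edgeR's set-by-condition term. The differences below are log2 fold change in numbers 9 to 12 minus that in numbers 5 to 8.

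For TGF-β1 against serum-free medium, the difference was 0.51 for TGFB1 (edgeR adjusted p = 0.0273), -1.38 for BMP4 (0.000271) and -0.76 for BMP6 (0.00531). For FBS against serum-free medium, it was -0.74 for TGFB2 (edgeR adjusted p = 0.00648), 0.71 for TGFB3 (0.00016) and 1.45 for BMP6 (9.21e-05). For TGF-β1 against FBS, it was -0.68 for TGFB3 (edgeR adjusted p = 0.000255), 1.86 for INHBA (8.38e-05), -1.52 for BMP4 (7.44e-05) and -2.21 for BMP6 (2.30e-07). The 2 terms of GDF10 that involve its 0 counts with FBS cannot be read. These comparisons share conditions, so a single condition can appear in 2 of them.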

How the results depend on the processing

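Of 30 ligand results, 21 kept direction and call in all 38 alternative settings, 24 of which left out 1 library. With the replicate block, ligands called higher and lower were 7 and 1, 5 and 5, and 7 and 2 in the 3 comparisons, and no ligand's call changed. Signs turned for BMP4 for TGF-β1 against serum-free medium (0.325 in library numbers 5 to 8) and for BMP2 for TGF-β1 against FBS (-0.0276 with total library size, -0.0848 in library numbers 5 to 8). For TGF-β1 against serum-free medium, the ligands called lower were 2 with total library size and in library numbers 9 to 12, and 0 in both fits of summed libraries. For TGF-β1 against FBS they were 1 in library numbers 9 to 12 and with 2 summed units, and the ligands called higher were 5 with total library size and with 2 summed units and 6 in library numbers 9 to 12 and with 4 summed units (7 otherwise). With 2 summed units per condition, all-gene calls fell to 1783 upward and 1830 downward with TGF-β1 over serum-free medium (4155 and 4408 otherwise) and 2756 and 3175 for TGF-β1 against FBS (4917 and 4840). With total library size the higher and lower calls were 3215 and 5368, 6219 and 4450 (FBS against serum-free medium, 5257 and 5386 otherwise), and 3131 and 6819, with all-gene medians of -0.17, 0.21 and -0.39. Without 1 library in turn, ligands called higher were 7 to 8, 5 and 7 in the 3 comparisons. Leaving out FBS replicates 5 and 6, chosen after seeing the data, changed only the call of BMP6 for TGF-β1 against serum-free medium (0.47, edgeR adjusted p = 0.0462). GDF10 for FBS against serum-free medium had no value in the fit of 16 libraries, where it fell below the filter. Depth limits BMP2, GDF6 and GDF10 in serum-free medium most.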

Other observations

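BMP3, a ligand that counters osteogenic BMP signals, averaged 50.02 CPM with TGF-β1, 29.8 CPM with FBS and 245 CPM in serum-free medium (n = 8 each). GDF11, a ligand of the activin-like branch, averaged 77.1 CPM with TGF-β1, 26.7 CPM with FBS and 16.4 CPM in serum-free medium. INHBE, another inhibin β subunit gene, had 25 reads with TGF-β1, 90 with FBS and 0 in serum-free medium over 8 libraries each and did not pass the filter on low counts. These genes were chosen after their values were seen.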
